A study of Mus musculus with 6 samples.

Results

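The genes of MHC class I presentation were examined by RNA sequencing of cells taken from joint cultures of mouse microglia and peritoneal macrophages. The set is defined by 10 gene symbols, the class I heavy chains H2-K1, H2-D1, H2-Q4, H2-Q7 and H2-T23, the light chain B2m, the peptide transporter and loading genes Tap1, Tap2 and Tapbp, and the regulator Nlrc5. All 10 were found among the 21399 gene symbols of each library, and all 10 had a mean of at least 1 FPKM (sequenced fragments scaled to transcript length and library size), the level set for testing, as did 10732 genes in all. There were 3 libraries labelled KO and 3 labelled WT. KO libraries came from cultures begun with microglia of knockout mice and WT libraries from cultures begun with microglia of wild-type mice. Both carried the CD45.2 allele, were deprived of oxygen and glucose and were then reoxygenated with peritoneal macrophages from CD45.1 mice. The sample labels do not name the deleted gene, while the series title names PPARα, and age, sex, strain and the length of the culture steps are not given. Whether replicate libraries stem from different animals or cultures is not stated, so the p-values measure the spread between these libraries only, which may be technical.

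MHC class I molecules show peptides from inside the cell to CD8 T cells. A polymorphic heavy chain pairs with the invariant β2-microglobulin, takes up a peptide that the TAP transporter has pumped into the endoplasmic reticulum, and travels to the cell surface. Nearly all nucleated cells, lymphocytes among them, carry class I, and interferons raise its genes. NLRC5, a relative of the class II regulator CIITA, is known as the transactivator of class I genes.

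The sequenced RNA held many lymphocyte transcripts. The summed level of 10 B cell markers was 4568 to 5004 FPKM in KO libraries and 5209 to 5910 FPKM in WT libraries, led by Cd79a and Cd79b, and none of the 10 was at 0 in any library. For 12 T and NK cell markers the sums were 157 to 184 FPKM in KO libraries and 192 to 238 FPKM in WT libraries. For 18 peritoneal macrophage markers, led by Lyz2 and Thbs1, they were 6785 to 13275 FPKM in KO libraries and 1641 to 4537 FPKM in WT libraries. Of 12 listed microglia markers, 11 were in the files and 5 had a mean of at least 1 FPKM. The defining microglial gene Sall1 was at 0 in 3 libraries and at most 0.152 FPKM in the others, and P2ry12 was at most 1.09 FPKM. The design text describes the sorted cells as microglia but with the CD45.1 mark of the added macrophages, and with these marker levels the sequenced cells cannot be called microglia from the data. These are bulk libraries, in which fewer cells of a type and less RNA per cell cannot be told apart. Whole reads could be recovered from the FPKM values, and the depth behind them was 35545353 to 38371691 reads in KO libraries and 34797407 to 37000585 reads in WT libraries.

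The class I genes of the H2-K, H2-D and H2-Q regions resemble each other in the promoter as well as in the transcript, which bears on how far their values are separate measurements. RefSeq promoter windows on GRCm38.p6, the assembly known as mm10, running from 250 bases before to 50 bases after the annotated start, were held for 8 of the 10 members. The longest run of letters common to the windows of H2-K1, H2-D1, H2-Q4 and H2-Q7 was 21 bases. It occurred in 6 of 32851 windows (0.0183%), which belonged to those 4 genes and H2-Q6. The stretches of 190 bases that begin with this run are given here because they show the shared layout. Capitals mark the common run, then a κB core (GGGATTCCC on either strand) where one is present, then the CCAAT boxes (CCAAT on either strand). The stretches lie at chr17:34000332-34000521 (minus strand) for H2-K1 and, on the plus strand, at chr17:35262860-35263049 for H2-D1, chr17:35379396-35379585 for H2-Q4 and chr17:35438959-35439148 for H2-Q7.
H2-K1: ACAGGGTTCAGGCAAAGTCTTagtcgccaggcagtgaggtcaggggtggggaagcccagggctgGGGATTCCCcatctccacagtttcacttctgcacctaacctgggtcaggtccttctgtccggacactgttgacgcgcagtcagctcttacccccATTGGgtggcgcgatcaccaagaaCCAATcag
H2-D1: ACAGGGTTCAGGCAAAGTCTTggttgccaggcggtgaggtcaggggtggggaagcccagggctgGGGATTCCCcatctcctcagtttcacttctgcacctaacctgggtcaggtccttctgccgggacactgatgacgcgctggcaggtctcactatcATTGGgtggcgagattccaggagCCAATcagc
H2-Q4: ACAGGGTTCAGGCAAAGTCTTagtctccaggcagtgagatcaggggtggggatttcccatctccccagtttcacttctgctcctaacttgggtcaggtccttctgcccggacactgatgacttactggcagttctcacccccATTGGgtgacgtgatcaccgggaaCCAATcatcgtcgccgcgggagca
H2-Q7: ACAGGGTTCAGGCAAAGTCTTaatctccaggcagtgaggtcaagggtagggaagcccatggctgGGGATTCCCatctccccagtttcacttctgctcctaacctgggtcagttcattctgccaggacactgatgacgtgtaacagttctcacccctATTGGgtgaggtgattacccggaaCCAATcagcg

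The κB core was present once in the windows of H2-K1, H2-D1 and H2-Q7 and had no match in that of H2-Q4, and 0.4% of all windows held it. The printed H2-Q4 stretch holds GGGATTTCCC, a longer form that was not searched for. The missing match therefore does not mean that H2-Q4 lacks a κB-like sequence. All 4 windows held 2 CCAAT boxes, a motif found in 37.4% of all windows, and at least 1 TGACG, the core of a cyclic AMP response element, on either strand, found in 20.8%. None of the 4 matched the interferon response element core as GAAANNGAA, which 8.6% of all windows held. All 4 held the variant GAANNGAAA on either strand, which 7.5% of all windows held and which was searched after the sequences had been seen. No member window matched the GAS motif TTCNNNGAA, which 8.3% held. The motifs searched do not overlap each other in these windows. The windows of H2-T23 and B2m matched the core as GAAANNGAA once each and did not match the variant. Their stretches of 130 bases are given to show it, with that core (GAAANNGAA, either strand) and the CCAAT box in capitals. They lie at chr17:36032725-36032854 (minus strand) for H2-T23 and chr2:122147518-122147647 (plus strand) for B2m. A match of letters is a description and not a binding site.
H2-T23: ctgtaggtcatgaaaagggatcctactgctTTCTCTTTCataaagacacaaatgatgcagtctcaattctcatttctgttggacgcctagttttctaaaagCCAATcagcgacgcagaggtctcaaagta
B2m: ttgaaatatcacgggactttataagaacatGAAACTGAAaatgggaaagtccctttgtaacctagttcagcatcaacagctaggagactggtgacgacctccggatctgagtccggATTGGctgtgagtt

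At the transcript level, the share of 50-base stretches that also occur in transcripts of another gene, on either strand, was computed from GENCODE M21. It was 36.4% for H2-Q4, 26.5% for H2-Q7, 14.5% for H2-T23, 12.8% for H2-D1 and 9.6% for H2-K1, and 0.0% for B2m. H2-K1 and H2-D1 shared 141 stretches with each other, which was 4.1% of those of H2-K1 and 5.4% of those of H2-D1. H2-Q4 shared 15.3% of its stretches with Gm11131 on the opposite strand and 9.7% with H2-Q6. H2-Q7 shared 14% with H2-Q10, 8.7% with H2-Q5 and 6.3% with H2-Q6. H2-Q9, whose FPKM are given further on, was not among the transcripts compared, so stretches shared with it are not in these figures. Tapbp shared 23.2%, mostly with the antisense gene Gm19412, Tap2 11.6%, Tap1 3.3%, in part with Psmb9, and Nlrc5 0.3%. No source used here names the counting tool or its strand setting, so the values of the H2-Q genes and of genes with an overlapping antisense partner are uncertain to that extent.

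All members were clearly expressed, and their order of abundance was nearly the same in every library. The plot of levels by library shows this order on a log axis. B2m, the light chain shared by all class I molecules, was the highest, at 1766, 1709 and 1625 FPKM in KO libraries 1 to 3 and 1622, 1805 and 1709 FPKM in WT libraries 1 to 3. It ranked 36 among all genes by mean level. The heavy chains H2-D1 and H2-K1, the classical molecules that present peptide to CD8 T cells, followed at ranks 55 and 67. H2-D1 exceeded H2-K1 in 6 of 6 libraries, although their ranges over libraries overlapped. H2-T23, which encodes Qa-1, a nonclassical molecule read by NK cell receptors, ranked 139, H2-Q4, a nonclassical chain of the Q region, 220, and Tapbp, which encodes the loading chaperone tapasin, 265. Tap1 and Tap2, the subunits of the peptide transporter, ranked 470 and 616, with Tap1 higher in 6 of 6 libraries and overlapping ranges. Nlrc5 ranked 2810 and H2-Q7, which encodes Qa-2, ranked 3940, and Nlrc5 exceeded H2-Q7 in 5 of 6 libraries with overlapping ranges. The other neighbours in the order did not overlap. The means of the highest and lowest member, B2m and H2-Q7, differed by 104-fold on this per-length scale.

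**Figure D1:**
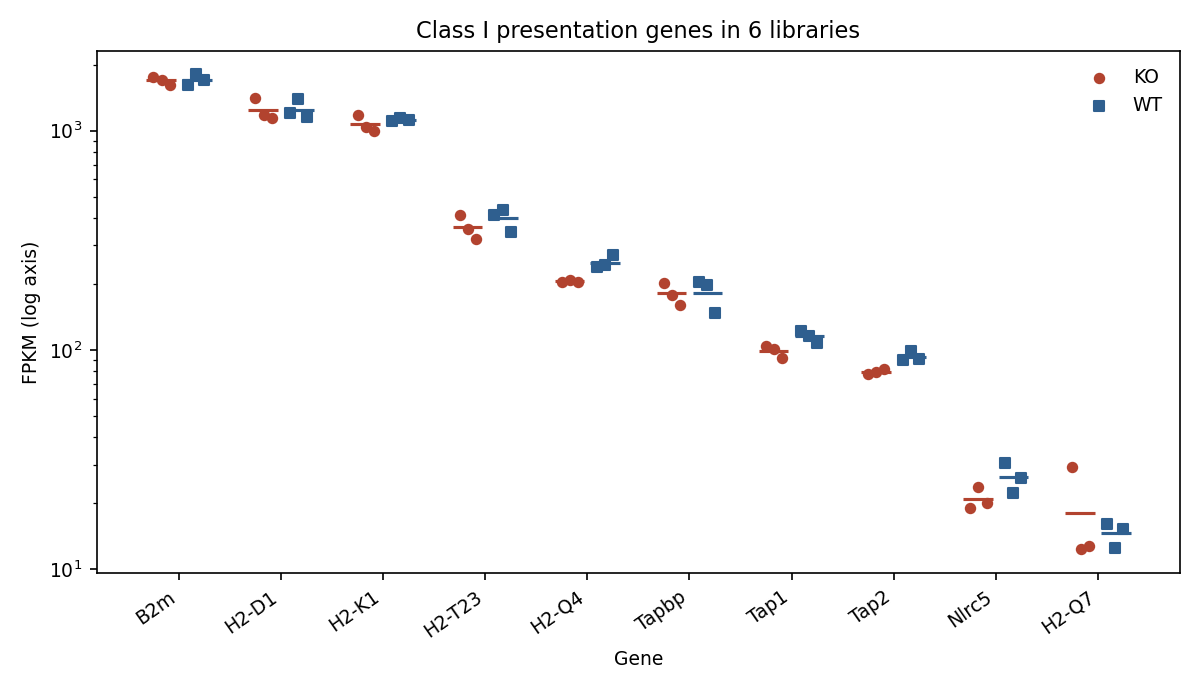
Levels of the 10 class I presentation genes, in FPKM on a log axis, with genes ordered by mean level; each point is a library, circles are KO and squares WT, and lines are group means. The order of the genes is nearly the same in all libraries, and KO library 1 stands above the other 5 for H2-Q7, at 29.2 FPKM.

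The comparison of KO with WT libraries asks whether class I gene expression depended on which microglia, knockout or wild-type, were co-cultured. H2-Q4, Tap1 and Tap2 were the members whose KO values all lay below their WT values, at 0.820, 0.859 and 0.856 times the WT mean, while H2-K1, H2-D1, B2m and Tapbp were at 0.955, 1.000, 0.993 and 0.991 times it. None of these differences passed the test. No member passed limma's test with Benjamini-Hochberg adjustment at 0.05, a threshold that 3 of the 10732 genes (0.028%) passed, and adjusted p-values ran from 0.176 for H2-Q4 to 0.996 for H2-D1. At an unadjusted limma p under 0.05, 3 members were lower in KO and 0 higher, where 8.21% of all genes tested were lower and 8.86% higher. For the same 3 members, H2-Q4, Tap1 and Tap2, each KO value was below each WT value. That held for 15.2% of all genes tested, and the opposite, with each KO value above each WT value, held for 9.75% of genes and for 0 members. The log2 fold change, taken on log2(FPKM + 1), was negative for 9 of 10 members with a median of -0.10, beside a median of -0.06 and 6936 negative values over the 10732 genes tested. The count of negative members depended on the scaling, with 5 of 10 under median-of-ratios scaling (median -0.03), 7 under quantile normalization and 9 when library totals left out ribosomal protein and mitochondrial genes.

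**Figure D2:**
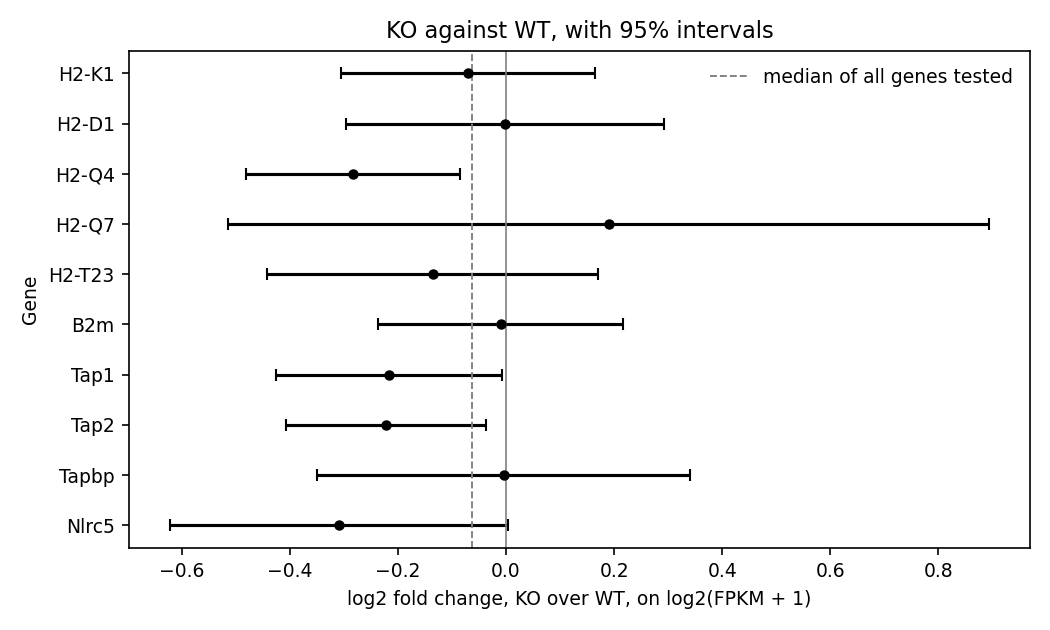
Log2 fold change of each member, KO over WT, on log2(FPKM + 1), with 95% intervals from limma (3 libraries a group); the dashed line is the median of all genes tested, -0.06. The intervals of H2-Q4, Tap1 and Tap2 lie below 0 without adjustment for the number of genes, and the others include 0.

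The classical heavy chains and B2m were close to level between the groups. H2-K1, at chr17:33996017-34000347 (minus strand), stood at 1186, 1037 and 1000.4 FPKM in KO libraries and at 1104, 1147 and 1124 FPKM in WT libraries. The WT values lay inside the KO range. Its log2 fold change was -0.07 (95% interval -0.31 to 0.16, limma adjusted p = 0.744), and it was -0.14 without KO replicate 1 and -0.02 without KO replicate 3. H2-D1, at chr17:35262730-35267499 (plus strand), stood at 1416, 1179 and 1143 FPKM in KO libraries and at 1199, 1389 and 1150 FPKM in WT libraries. In each group 1 library stood above the others, and the group means were 1246 ± 148 FPKM in KO and 1246 ± 126 FPKM in WT (SD, n = 3 each). The log2 fold change was -0.0016 (95% interval -0.30 to 0.29, limma adjusted p = 0.996). B2m, at chr2:122147686-122153083 (plus strand), averaged 1700 ± 71.0 FPKM in KO and 1712 ± 91.7 FPKM in WT, and its log2 fold change was -0.0099 (95% interval -0.24 to 0.22, limma adjusted p = 0.967). B2m overlaps the gene Patl2 on the opposite strand. The sign of H2-K1, H2-D1 and B2m turned with median-of-ratios scaling, and that of H2-D1 and B2m also with quantile normalization.

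H2-T23, at chr17:36029773-36032855 (minus strand), stood at 412, 356 and 321 FPKM in KO libraries and at 415, 436 and 345 FPKM in WT libraries. The groups overlapped, and library 3 was the lowest of both groups. The log2 fold change was -0.14 (95% interval -0.44 to 0.17, limma adjusted p = 0.624), and it ran from -0.24, without WT replicate 3, to -0.05, without KO replicate 3. H2-Q4, at chr17:35379617-35385290 (plus strand), had 204, 208 and 204 FPKM in KO libraries, against 238, 243 and 271 FPKM in WT libraries. The KO values were close together, with a coefficient of variation of 1.21%, and lay below all WT values. The mean in KO was 0.820 times that in WT, with a log2 fold change of -0.28 (SE 0.08, 95% interval -0.48 to -0.08). This was the smallest p of the members, and it did not pass over all genes tested (limma adjusted p = 0.176). Over all 16 alternative settings H2-Q4 stayed negative, between -0.36 and -0.21, with adjusted p-values from 0.13 to 0.453.

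H2-Q7, at chr17:35439155-35443773 (plus strand), was the only member with a positive log2 fold change, and a single library set it. Its levels were 29.2, 12.3 and 12.8 FPKM in KO libraries and 16.0, 12.5 and 15.3 FPKM in WT libraries. KO library 1 held 1719 H2-Q7 reads, against 697 to 895 reads in the other 5 libraries. The log2 fold change was 0.19 (95% interval -0.51 to 0.89, limma adjusted p = 0.77), and without KO replicate 1 it was -0.19. Because the Q region genes share sequence, H2-Q6, H2-Q7 and H2-Q9 were also summed. The sum was 44.3, 34.1 and 27.6 FPKM in KO libraries and 33.6, 30.6 and 37.6 FPKM in WT libraries. KO library 1 thus remained the highest in the sum, and the groups overlapped. With H2-Q4 added, the sums were 248, 243 and 232 FPKM in KO libraries, against 272, 274 and 308 FPKM in WT libraries, and did not overlap. H2-Q4 made up most of each of these sums, and its own groups did not overlap. The separation of the sums is therefore no separate support.

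Taken as a pool, the 5 member heavy chains summed to 3247, 2792 and 2682 FPKM in KO libraries and to 2973, 3227 and 2905 FPKM in WT libraries. H2-K1 and H2-D1 made up 79.3% to 80.1% of the pool in KO libraries and 77.5% to 78.6% in WT libraries. The pool was 1.71 ± 0.114 times the B2m level in KO libraries and 1.77 ± 0.0679 times in WT libraries (SD, n = 3 each). A ratio of RNA levels says nothing of the proteins.

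The transporter genes were the other members with groups that did not overlap. Tap1, at chr17:34187553-34197225 (plus strand), had 105, 101 and 92.3 FPKM in KO libraries and 123, 116 and 108 FPKM in WT libraries. The highest KO value lay just under the lowest WT value. The mean in KO was 0.859 times that in WT, with a log2 fold change of -0.22 (SE 0.09, 95% interval -0.43 to -0.0077, limma adjusted p = 0.279). Its annotation overlaps that of Psmb9, an immunoproteasome subunit on the opposite strand, which stood at 77.0, 72.3 and 74.4 FPKM in KO libraries and at 81.7, 92.3 and 78.5 FPKM in WT libraries. Tap2, at chr17:34203527-34216321 (plus strand), had 78.1, 79.5 and 81.9 FPKM in KO libraries and 89.8, 99.3 and 90.7 FPKM in WT libraries. The KO values were again close together and below the WT values, at 0.856 times the WT mean, with a log2 fold change of -0.22 (SE 0.08, 95% interval -0.41 to -0.04, limma adjusted p = 0.231). Tap2 overlaps the opposite-strand noncoding genes Gm20496 and Gm15821. Tap1 and Tap2 stayed negative in all 16 alternative settings, from -0.30 to -0.14 for Tap1 and from -0.30 to -0.15 for Tap2. Tapbp, at chr17:33915899-33929292 (plus strand), did not share this pattern of separation. It had 203, 179 and 161 FPKM in KO libraries and 204, 197 and 147 FPKM in WT libraries, with a log2 fold change of -0.0043 (95% interval -0.35 to 0.34, limma adjusted p = 0.991), and its sign turned with median-of-ratios scaling. Its annotation overlaps Zbtb22 on the same strand and Gm19412 on the opposite strand.

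**Figure D3:**
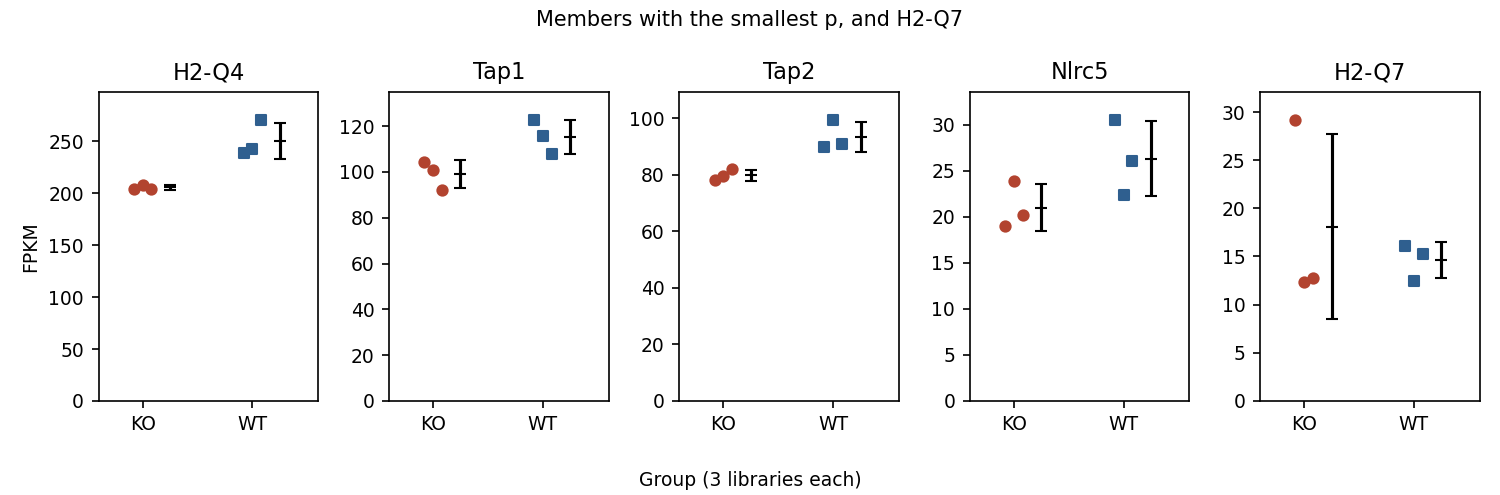
FPKM of H2-Q4, Tap1, Tap2, Nlrc5 and H2-Q7 by group, with axes from 0; points are libraries and black marks are the mean ± SD (n = 3 each). The KO points lie below the WT points for H2-Q4, Tap1 and Tap2, overlap for Nlrc5, and for H2-Q7 1 KO library stands apart at 29.2 FPKM.

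Nlrc5, at chr8:94434356-94527272 (plus strand), had the lowest fold change of the members. Its levels were 19.0, 23.8 and 20.1 FPKM in KO libraries and 30.5, 22.4 and 26.0 FPKM in WT libraries. KO library 2 exceeded WT library 2, so the groups overlapped. The mean was 20.98 ± 2.53 FPKM in KO and 26.3 ± 4.06 FPKM in WT (SD, n = 3 each), with a log2 fold change of -0.31 (SE 0.13, 95% interval -0.62 to 0.0045, limma adjusted p = 0.299). It stayed negative in all 16 alternative settings, between -0.41 and -0.20. Ciita, the class II counterpart of Nlrc5, stood at 44.7, 49.97 and 48.9 FPKM in KO libraries and at 61.9, 47.0 and 56.9 FPKM in WT libraries, and both regulators had their lowest WT value in library 2. None of the 10 B cell markers passed limma's test (smallest adjusted p = 0.201). All 10 had negative log2 fold changes, with a median of -0.23, and 9 members and 6936 of the 10732 genes tested were negative too. With median-of-ratios scaling all 10 markers stayed negative, while 5 of 10 members were negative. For 6 of the 10 markers each KO value lay below each WT value, as it did for 15.2% of all genes tested. None of the 10 T and NK cell markers tested passed (smallest limma adjusted p = 0.119), and all were negative, with a median of -0.35. Of 16 peritoneal macrophage markers tested 1 passed, and 15 were positive, with a median of 1.66. For 14 of the 16 each KO value lay above each WT value, as it did for 9.75% of all genes tested. The part of these cell types in the values of H2-Q4, Tap1, Tap2 and Nlrc5 was not tested.

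Ratios between members within a library, which do not depend on library scaling, were compared for 5 pairs. The ratio of H2-D1 to H2-K1 was 1.16 ± 0.0317 in KO libraries and 1.11 ± 0.0961 in WT libraries (SD, n = 3 each). B2m was 1.59 ± 0.0854 times H2-K1 in KO libraries and 1.52 ± 0.0529 times in WT libraries. H2-T23 was 0.337 ± 0.0141 times H2-K1 in KO libraries and 0.354 ± 0.0408 times in WT libraries. Tap1 was 1.24 ± 0.108 times Tap2 in KO libraries and 1.24 ± 0.109 times in WT libraries. The ratio of Tapbp to Tap1 was 1.94, 1.78 and 1.75 in KO libraries, against 1.66, 1.70 and 1.37 in WT libraries, and here each KO value was above each WT value. This difference, 0.21 on the log2 scale, had an exact two-sided permutation p = 0.1, the smallest that 3 against 3 allows, and p = 0.5 after adjustment over the 5 ratios. Without WT replicate 3 it was 0.12. The other 4 had exact permutation p-values from 0.3 to 1, adjusted to 0.75 or 1.

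**Figure D4:**
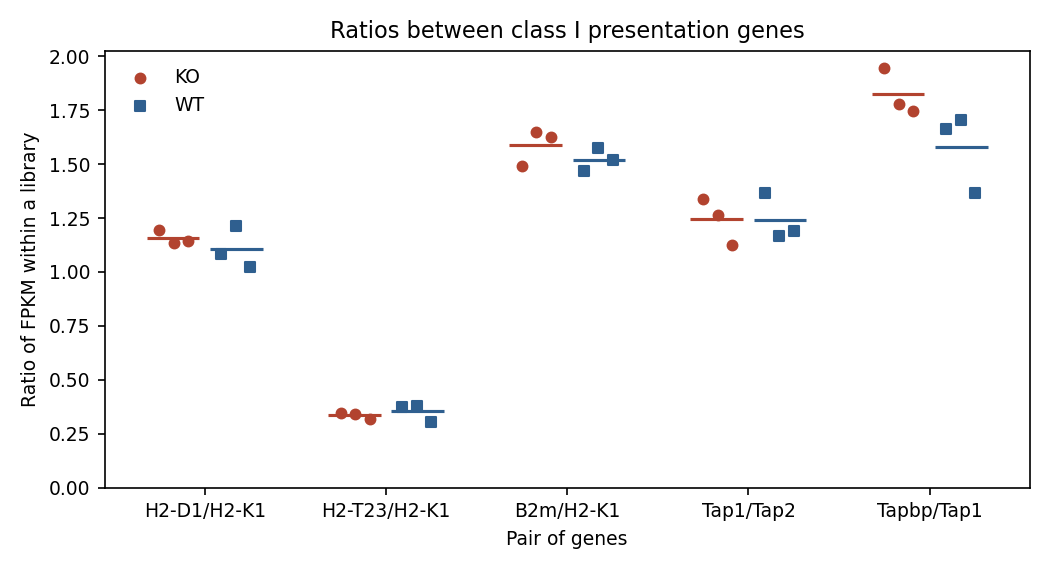
Ratios of FPKM between pairs of class I presentation genes within each library, on an axis from 0; circles are KO libraries, squares WT libraries and lines group means (n = 3 each). For Tapbp over Tap1 the KO ratios, 1.75 to 1.94, lie above the WT ratios, 1.37 to 1.70, and the other pairs overlap.

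The members did not all vary together. Over the 6 libraries, Pearson's r on log2(FPKM + 1) was 0.87 between H2-T23 and Tapbp, 0.81 between H2-D1 and H2-T23, 0.81 between H2-Q4 and Tap2 and 0.77 between H2-K1 and H2-D1. It was 0.68 between Tap1 and Tap2, and for Nlrc5 it was 0.68 with Tap1, 0.65 with H2-Q4 and -0.46 with H2-D1. These are descriptions over 6 libraries that share their group differences and their depth. Spread within a group also differed between members. The coefficient of variation was 1.21% for H2-Q4, 4.18% for B2m and 53.0% for H2-Q7 in KO libraries, and 6.92%, 5.35% and 12.9% for the same genes in WT libraries. The genes outside the set whose standardised pattern over the 6 libraries was most like the mean of the members were Kctd13 (r = 0.992), Psme1 (r = 0.989), Slc25a25 (r = 0.983), 5830454E08Rik (r = 0.983) and Nat9 (r = 0.982). They are the highest of all genes tested outside the set, which holds no test.

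Among the other class I and class I-like chains, 13 of 23 listed symbols were in the files and 9 were tested. None passed, with 2 positive and 7 negative log2 fold changes, a median of -0.13 and a smallest limma adjusted p of 0.127. H2-T22, a nonclassical chain of the T region, had 66.8, 63.0 and 59.6 FPKM in KO libraries and 72.5, 74.1 and 72.4 FPKM in WT libraries. H2-Q9 had 8.48, 8.17 and 8.84 FPKM in KO libraries and 9.38, 10.1 and 12.4 FPKM in WT libraries. For both, each KO value lay below each WT value, and H2-T22 shared 53.5% of its 50-base stretches with other genes. The class I-like genes with the opposite sign were Hfe, an iron-regulating molecule, at 5.35, 3.36 and 3.20 FPKM in KO libraries against 0.751, 2.38 and 0.864 FPKM in WT libraries, and Fcgrt, the neonatal Fc receptor, at 15.1 ± 1.78 FPKM in KO and 11.99 ± 2.45 FPKM in WT (SD, n = 3 each). The log2 fold change of Hfe was 1.13 and that of Fcgrt 0.32.

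All 17 genes of peptide supply and chain folding were tested and none passed. Of these, 9 were positive and 8 negative, with a median of 0.02 and a smallest limma adjusted p of 0.323, and the median turned to -0.05 with the rescaled totals. Psmb9 stood at 74.6 ± 2.32 FPKM in KO and 84.1 ± 7.22 FPKM in WT, and Psme1, a subunit of the PA28 proteasome activator, at 202 ± 21.2 FPKM in KO and 233 ± 15.9 FPKM in WT (SD, n = 3 each). The endoplasmic reticulum chaperone Canx, calnexin, stood at 91.8, 78.6 and 78.9 FPKM in KO libraries and 77.2, 69.7 and 67.9 FPKM in WT libraries. Pdia3, the disulfide isomerase of the loading complex, stood at 178 ± 32.9 FPKM in KO and 145 ± 22.6 FPKM in WT.

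Of 24 genes of interferon sensing and class I transcription, all were tested and none passed, with 5 positive and 19 negative and a median of -0.09, against 10 positive and 14 negative under median-of-ratios scaling. The receptor subunits of type I interferon had positive log2 fold changes, with Ifnar2 at 16.6, 13.9 and 12.8 FPKM in KO libraries against 9.44, 10.8 and 8.28 FPKM in WT libraries, and Ifnar1 at 30.2 ± 0.787 FPKM in KO and 25.8 ± 0.822 FPKM in WT (limma adjusted p = 0.119 and 0.204). Stat2, a signal transducer of the same receptor, stood at 31.6, 35.9 and 28.9 FPKM in KO libraries against 50.6, 38.4 and 37.8 FPKM in WT libraries. Rfxank, a subunit of the RFX complex that binds class I and class II promoters, stood at 11.4, 11.4 and 12.96 FPKM in KO libraries against 13.7, 14.6 and 17.6 FPKM in WT libraries (limma adjusted p = 0.234 for Stat2 and 0.211 for Rfxank). In this list 6 of 24 genes had each KO value below each WT value, beside 15.2% of all genes tested, and 2 had the reverse, beside 9.75%.

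Of 22 interferon-induced genes, 20 were in the files and 18 were tested, and none passed. There were 6 positive and 12 negative values with a median of -0.10 and a smallest limma adjusted p of 0.21. Gbp4, an interferon-inducible GTPase gene, stood at 7.51, 9.87 and 9.26 FPKM in KO libraries and 13.9, 10.5 and 11.7 FPKM in WT libraries. Ifit3 stood at 22.3, 17.1 and 7.48 FPKM in KO libraries and 52.5, 21.3 and 15.5 FPKM in WT libraries, with WT library 1 far above the rest. Gbp3 and Igtp had log2 fold changes of -0.14 and -0.32.

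All 11 class II presentation genes were tested, and none passed. All 11 had negative log2 fold changes, from -0.25 to -0.13 with a median of -0.17, and for 5 of them each KO value lay below each WT value, as it did for 15.2% of all genes tested. All 11 were also negative under the 3 other scalings. H2-DMb1, a chain of the peptide exchange factor, stood at 78.0, 73.0 and 81.4 FPKM in KO libraries and 85.2, 91.9 and 101 FPKM in WT libraries (log2 fold change -0.25, limma adjusted p = 0.24). The class II chain H2-Eb1 averaged 1136 ± 30.6 FPKM in KO and 1289 ± 95.7 FPKM in WT, and the invariant chain Cd74 averaged 4931 ± 462 FPKM in KO and 5806 ± 663 FPKM in WT (SD, n = 3 each). H2-DMa had a log2 fold change of -0.16. B cells express class II genes, and the summed B cell marker level in KO libraries was 0.848 times that in WT libraries. The part of B cell RNA in the class II values was not tested. Whether the class I and class II lists differ from each other was not tested.

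A list of 19 genes held receptors for class I molecules and related receptors, not all of which are known to bind class I. Of these, 10 were tested and none passed, with 3 positive and 7 negative and a median of -0.21. Lilrb4a, an inhibitory receptor, stood at 168, 118 and 89.5 FPKM in KO libraries against 48.3, 76.3 and 43.2 FPKM in WT libraries, with a log2 fold change of 1.15 (limma adjusted p = 0.12). Pirb, an inhibitory receptor for class I, stood at 160, 119 and 109 FPKM in KO libraries against 73.8, 103 and 76.0 FPKM in WT libraries, with a log2 fold change of 0.61 (limma adjusted p = 0.169). Klra2 of the Ly49 family stood at 3.52, 5.12 and 3.88 FPKM in KO libraries against 1.34, 3.44 and 0.586 FPKM in WT libraries. Klra7, an NK cell receptor of the same family, stood at 0.674, 0.711 and 1.11 FPKM in KO libraries against 1.25, 1.92 and 2.14 FPKM in WT libraries (limma adjusted p = 0.152). The macrophage marker sums were higher in KO libraries, as were the means of Lilrb4a, Pirb and Klra2. Within KO the macrophage sum was highest in library 1, where Lilrb4a and Pirb were highest and Klra2 was lowest. Within WT the macrophage sum, Lilrb4a, Pirb and Klra2 were all highest in library 2. The T and NK cell marker sums were lower in KO libraries, as was the mean of Klra7. The part of these cell types was not tested.

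**Figure D5:**
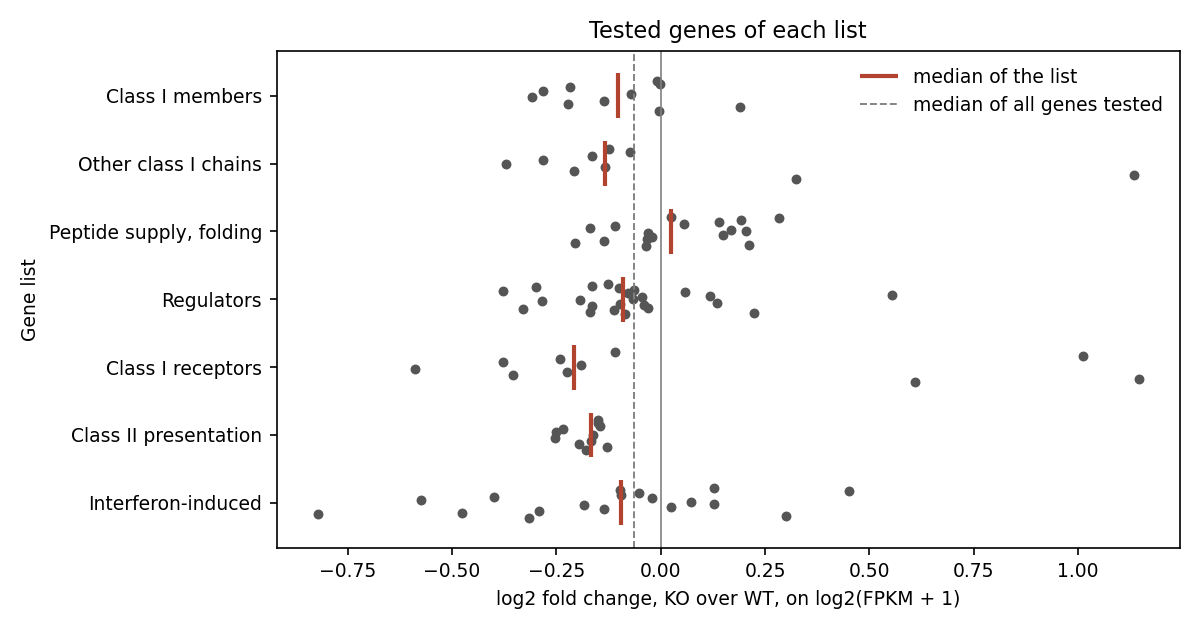
Log2 fold changes, KO over WT on log2(FPKM + 1), of the tested genes of 7 lists; each point is a gene, red bars are list medians and the dashed line is the median of all genes tested, -0.06. The class I members lie between -0.31 and 0.19, the class II genes are all below 0, and 5 genes lie above 0.5, namely Hfe, Ifnar2, Lilrb4a, Klra2 and Pirb. The lowest genes are Ifit3, Klra7 and Ifit2, at -0.82, -0.59 and -0.57.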

How the data were processed

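Gene expression was measured by RNA sequencing of total RNA extracted with TRIzol, with libraries made with the VAHTS Universal V6 kit, per the labels' protocols. The values the authors deposited are FPKM, with 1 file per library, and the submitters' processing notes name the mm10 genome build. The aligner, counter, annotation and strand setting: not given in the sources used here. For all 19331 genes above 0 in at least 2 libraries, the FPKM were whole multiples of what 1 read is worth, within 0.002 reads, and 99.1% of the tested genes then had a whole length in bases, which fixed the depths. Groups came from the sample titles. All genes averaging 1 FPKM or more were tested on log2(FPKM + 1), using limma 3.58.1 (R 4.3.3) with eBayes and its trend option, and Benjamini-Hochberg adjustment over all of them, with a threshold of 0.05, and the members were read from that fit. Alternatives changed the pseudocount, the filter, the scaling, the variance model, the replicate block or the libraries kept. The fit was also run on simulated data with independent noise for each gene and library. The outcome is not reported here, and it does not cover effects shared by many genes of a library. Ratios were compared with exact permutation tests. The members, lists and rules were chosen with earlier results of these data known. Of each of 6 further pathway lists, up to 4 tested genes with the smallest p were named, together with the 5 genes most like the members and the 2 most abundant markers of a marker list; the text leaves out the most abundant markers of lists that it does not use, and names others after their values were seen. Positions and transcripts came from GENCODE M21 (mm10) and promoters from RefSeq (GRCm38.p6). Python 3.11.15, pandas 2.3.3 and matplotlib 3.10.9 were used. The summed level of the microglia markers is not reported here.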

Additional observations from a re-analysis of the deposited data

How the results depend on the processing

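No class I member was called under any of the 16 alternative settings (other pseudocounts, filters, scalings and variance models, voom on the recovered reads, a replicate block, and leaving out each library). H2-Q4, Tap1, Tap2, Nlrc5 and H2-T23 kept a negative log2 fold change in all of them. The median over all genes moved from -0.06 to 0.0007 with median-of-ratios scaling and to -0.13 with totals rescaled without mitochondrial and ribosomal protein genes. The first of these gave 0.0027 for H2-K1, 0.0714 for H2-D1, 0.0631 for B2m and 0.0684 for Tapbp, and quantile normalization gave 0.0570 for H2-D1 and 0.0166 for B2m. Leaving out single libraries gave H2-D1 from -0.0971 to 0.0792, H2-Q7 from -0.19 to 0.39, H2-K1 from -0.14 to -0.02, H2-T23 from -0.24 to -0.05, B2m from -0.0483 to 0.0289, Tapbp from -0.15 to 0.0810 and the log2 ratio of Tap1 to Tap2 from -0.0503 to 0.0761. The log2 ratio of Tapbp to Tap1 ran from 0.12, without WT replicate 3, to 0.27. The median of the interferon-induced genes ran from -0.40 to 0.18 in the same way. The cause of these changes was not tested. The member median ran from -0.20, without KO replicate 1, to -0.0362 when single libraries were left out. Median-of-ratios scaling gave medians of -0.0721 for the other class I chains, -0.0204 for the regulators and -0.0939 for class II, and the rescaled totals gave -0.20, -0.17 and -0.25 for the same lists.

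Over all genes, the count called higher in KO was 6 with a pseudocount of 5, 6 with rescaled totals, 5 with voom, 11 with the replicate block, 0 without a filter (1268 at an unadjusted limma p under 0.05), and from 0 to 500 without single libraries: 500 without WT replicate 2, 0 without WT replicate 1 or 3, 1 without KO replicate 1 or 2, and 2 without KO replicate 3. The count called lower ran from 0 to 38, with 38 again without WT replicate 2. Beside the main count of 0 lower, 881 genes were lower at an unadjusted limma p under 0.05, and voom called 0. Same-numbered libraries did not deviate together over all genes (r = -0.21, -0.38 and 0.27 for numbers 1 to 3), so the numbers were not taken as pairs. Over the 10 members alone r was 0.21, 0.18 and 0.12, and over 18 interferon-induced genes 0.70, -0.15 and 0.95. With the replicate block no member was called, and the ratio of Tapbp to Tap1 had an exact sign-flip p = 0.25, the smallest that 3 pairs allow. Each member had at least 697 reads in every library, and the number of libraries limits the precision.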

Other observations

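Some interferon-induced genes had a wide spread between the libraries of each group, and others did not. Gbp3, for example, ran from 15.3 to 17.4 FPKM in KO libraries and from 17.5 to 18.3 FPKM in WT libraries. Isg15, a ubiquitin-like protein gene, had 47.6, 28.4 and 13.5 FPKM in KO libraries 1 to 3 and 41.6, 29.2 and 12.9 FPKM in WT libraries 1 to 3. Irf7, an interferon response factor, had 144, 96.9 and 52.3 FPKM in KO libraries and 146, 109 and 51.2 FPKM in WT libraries. Of 18 tested genes of this list, 9 had the same order of libraries in both groups, as did 11.8% of all genes tested, and 12 were lowest in library 3 of both groups. Isg15, Irf7 and the example of Gbp3 were chosen after their values were seen. Among the class I members, H2-D1, H2-T23, Tap1 and Tapbp were lowest in library 3 of both groups, as were 1443 of all 10732 genes tested. H2-Q4 and Tap2 were lowest in library 1 of both groups and H2-Q7 in library 2, so that 7 of 10 members had the same lowest library in both groups, as did 3173 of all 10732 genes. Whether same-numbered cultures were handled together is not stated in the labels.

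The mast cell marker sum ranged from 107 to 469 FPKM in KO libraries and from 10.5 to 559 FPKM in WT libraries.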
